A study of Mus musculus with 5 samples.

Results

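CD4 T cells were followed in single-cell RNA sequencing (scRNA-seq) data of mouse lung. The cells were chosen by their own counts of a few genes. A barcode was taken as a CD4 T cell when it passed the filter on cells (more than 700 and fewer than 8000 genes and under 5% of counts from mitochondrial features), held 1 or more counts of the CD3 genes Cd3d, Cd3e and Cd3g together, 1 or more counts of Cd4, and 0 counts of Cd8a, Cd8b1, Cd79a and Ms4a1. This rule found 411 CD4 T cells among the 12707 filtered cells of 4 libraries. Newborn C57BL/6J mice were kept with their dams in room air (normoxia) or in hyperoxia (over 95% O2) for 3 days, and hyperoxia-exposed pups then recovered in room air. Lungs were taken at postnatal day (pnd) 7 or 60, which gave 1 library each for air at pnd7, hyperoxia at pnd7, air at pnd60 and hyperoxia at pnd60. Cells were not sorted before these libraries were made, and how many mice, and of which sex, went into each was not stated in the labels or methods. In another library, of lung cells sorted for C12FDG, a stain for the beta-galactosidase activity of senescent cells, and pooled from 3 hyperoxia-exposed mice at pnd7, the rule found 0 CD4 T cells among 493 filtered cells, which, at the floor of 3 counts, allows a share of up to 0.609%, and that library was not used further.

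CD4 T cells are the helper and regulatory cells of the adaptive immune system. Their T cell receptor, which signals through the CD3 chains, reads peptides held by MHC class II on other cells, and CD4 binds the same MHC molecule. Zbtb7b is the transcription factor that commits a thymocyte to this lineage, CD40 ligand (Cd40lg) on activated helper cells licenses B cells, dendritic cells and macrophages, and Foxp3 marks regulatory T cells. In the lung these cells circulate through blood and lymphatics as naive cells or settle as memory and regulatory cells, and they reach the tissue from the thymus after birth.

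Values for the 4 libraries are given in the order air at pnd7, hyperoxia at pnd7, air at pnd60 and hyperoxia at pnd60. The numbers of CD4 T cells were 42, 22, 167 and 180, with 294369, 205081, 462390 and 510160 counts of unique molecular identifiers in all. The median CD4 T cell held 6021, 6180, 2354 and 2540 counts, so cells at pnd7 were read more deeply than cells at pnd60. Levels are CPM, the counts of a gene scaled to 1000000 of the summed counts of the CD4 T cells of a library. Intervals on levels, shares and ratios are exact at 95% and cover counting error only, and a value after ± is a standard error (SE). Any 2 libraries shared at most 7 cell barcodes. Scrublet called 0, 0, 3 and 4 of the CD4 T cells doublets. The genes of the rule lie on mouse chromosomes 6 (Cd4, mm10 chr6:124864693-124888247) and 9 (Cd3g, chr9:44969572-44980431, Cd3d, chr9:44981769-44987052, and Cd3e, chr9:44998735-45009663).

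The values that chose the cells are given as a description. Cd4 was at 279, 166, 634 and 649 CPM in the CD4 T cells. Exactly 1 Cd4 count, the lowest value that the rule accepts, was held by 17 of 42, 14 of 22, 87 of 167 and 92 of 180 of them, and exactly 1 CD3 count by 1 of 42, 0 of 22, 21 of 167 and 17 of 180. Just outside the rule, 161 of 332, 48 of 126, 164 of 601 and 185 of 663 of the cells with a CD3 count held neither Cd4 nor Cd8a and Cd8b1. Endothelial cells were taken as cells with 2 or more counts of the endothelial genes Pecam1, Cdh5 and Cldn5 together and 0 of Ptprc. A CD3 count was found in 26 of 273, 16 of 260, 7 of 809 and 5 of 837 of them (9.52%, 6.15%, 0.865% and 0.597%). The cells with a CD3 count were then left out of this class. A Cd4 count was found in 0 of 247, 0 of 244, 3 of 802 and 1 of 832 of the cells left, which are the endothelial cells used from here on. The endothelial cells held medians of 3994, 4898.5, 1829 and 1921 counts.

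Genes that the rule did not use were checked against the label. Lat, an adaptor of the T cell receptor, was found in 37 of 42, 21 of 22, 112 of 167 and 125 of 180 CD4 T cells, against 3.24%, 2.05%, 0.998% and 0.240% of endothelial cells. The T cell receptor alpha constant gene was listed at 0 under its own symbol in every library, as were Trbc1, Trbc2, Cd2 and Ltb, which T cells express. A further feature of the same gene, Trac_1, chosen after its values were seen, was found in 36 of 42, 21 of 22, 115 of 167 and 139 of 180 CD4 T cells. Zbtb7b (chr3:89377644-89393673) was found in 14 of 42, 6 of 22, 29 of 167 and 29 of 180 cells and Cd40lg (chrX:57212143-57224042) in 20 of 42, 9 of 22, 18 of 167 and 27 of 180 cells, with 0 endothelial cells holding Cd40lg. Of the B cell genes, the rule itself set Cd79a and Ms4a1 to 0, and the other 8 summed to 10.2, 9.75, 30.3 and 9.80 CPM. Neutrophil genes summed to 0, 9.75, 13.0 and 5.88 CPM over 8 members.

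Markers of other lung cells were present in the CD4 T cells and differed between the libraries. The 7 erythroid genes summed to 41777.5, 39818, 97.3 and 43.1 CPM, led at pnd7 by Hbb-bs with 7219 and 4946 counts, of which 1 cell in each library held 75.5% and 96.8%. The 13 epithelial genes summed to 380.5, 307, 7295 and 980.1 CPM, with Sftpb and Ager at 0 throughout. At pnd60 in air, Sftpc, the surfactant protein of type II cells, had 2837 counts, and 1 cell held 1644 of them. The 12 mesenchymal genes summed to 88.3, 14.6, 769.9 and 927 CPM with Dcn at 0 in every library, the 12 endothelial genes to 349.9, 97.5, 575 and 449 CPM with Cldn5 at 0, and the 17 macrophage and monocyte genes to 132, 683, 238 and 490.0 CPM. The main fits were CD4 against CD8 T cells, age and exposure in CD4 T cells, and the age change in CD4 minus that in CD8 T cells. They were repeated without cells with 2 or more counts of other-lineage genes and without the cell that held most of a gene's counts. The first setting took out 27 of 42, 14 of 22, 98 of 167 and 119 of 180 CD4 T cells and left 15, 8, 69 and 61. How far a call lost there came from the smaller number of cells was not tested. Beyond that the part of these markers in the results was not tested.

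CD4 T cells made up a larger share of all filtered lung cells at pnd60 than at pnd7, an order that turned when cells with other-lineage counts were left out, and at each age the intervals of air and hyperoxia overlapped. Of all filtered cells they were 1.82% (1.31 to 2.45%), 1.77% (1.11 to 2.66%), 3.80% (3.25 to 4.41%) and 3.78% (3.26 to 4.37%). The intervals of the pnd7 libraries and the pnd60 libraries did not overlap. Of the cells with a CD3 count, CD4 T cells were 12.7% (9.27 to 16.7%), 17.5% (11.3 to 25.2%), 27.8% (24.2 to 31.6%) and 27.1% (23.8 to 30.7%). Within CD4 and CD8 T cells together, their share was 42.9%, 37.3%, 44.5% and 43.1%, and these 4 intervals overlapped. When each cell was thinned to 1000 counts and chosen again, 9, 2, 80 and 78 CD4 T cells were left, or 0.391%, 0.161%, 1.83% and 1.66%, with both pnd60 libraries again above both pnd7 libraries. Without cells with 2 or more counts of other-lineage genes, which takes most lung cells out of the total, they were 9.26% (5.28 to 14.8%), 8.25% (3.63 to 15.6%), 7.20% (5.65 to 9.03%) and 7.39% (5.70 to 9.40%), so that both pnd7 libraries lay above both pnd60 libraries with overlapping intervals. Of the CD3 cells left in that setting they were 19.5%, 27.6%, 28.3% and 26.1%, again with overlapping intervals. With 1 library per condition, age, litter and library preparation cannot be told apart, and no test was made.

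**Figure D1:**
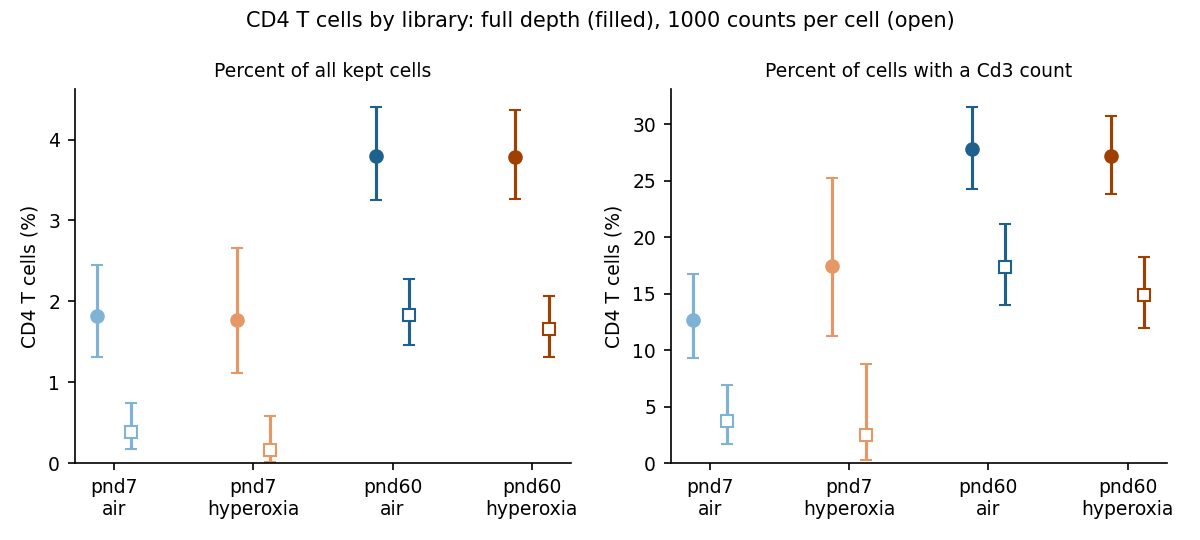
CD4 T cells as a percentage of all filtered cells (left) and of cells with a CD3 count (right) in the 4 libraries, with exact 95% intervals that cover counting error only. Filled circles use all counts and open squares use cells thinned to 1000 counts, and on the left both pnd60 libraries lie above both pnd7 libraries at either depth.

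To see what sets CD4 T cells apart from the most alike cells of the same libraries, they were compared with 539 CD8 T cells (56, 37, 208 and 238), which were chosen with the same CD3 rule, 1 or more counts of Cd8a or Cd8b1 and none of Cd4. Counts were summed per library and cell class and tested with edgeR's quasi-likelihood test with the library as a block and Benjamini-Hochberg adjustment, and the genes of the rule were left out. Of 6383 genes, 50 (0.783%) were higher and 36 (0.564%) lower in CD4 T cells at an adjusted p under 0.05. Of the called genes, 11 of the 50 higher and 8 of the 36 lower reached the count filter (10 counts at the median library size) through 1 class alone. The other class was below it in every library, so a call in the other direction was not open to them. They included 2 of 3 helper-lineage and 4 of 6 regulatory genes called higher in CD4 T cells, and 3 of 5 genes of immature thymocytes called lower. Of 5 genes of cytotoxic cells called lower, 0 were among them. The CD8 T cells also held genes of other lung cells. Their epithelial genes summed to 2208, 28182, 4292 and 1728 CPM, with hyperoxia at pnd7 the highest. Their erythroid genes summed to 54487, 35593, 158 and 50.9 CPM and their mesenchymal genes to 439, 1032, 699.8 and 459.6 CPM. Of these 3 lists edgeR called 0 genes in either direction between the classes, and at an unadjusted p under 0.05 3 epithelial, 1 erythroid and 1 mesenchymal genes were lower in CD4 T cells and 0 higher. DESeq2 called 1 of their genes, Hbb-bt, lower. Of 4 tested macrophage and monocyte genes edgeR called 1 lower in CD4 T cells, Plet1 (log2 difference -3.56, adjusted p = 0.012). At an unadjusted p under 0.05, 3 of the 4 were lower and 0 higher. Of 7 tested endothelial genes 0 were called, and 4 were lower and 0 higher at an unadjusted p under 0.05. The median log2 difference of all genes was -0.006. Without 1 library the counts ran from 26 to 59 higher and 25 to 65 lower, with 33 and 25 without air at pnd7, 26 and 26 without hyperoxia at pnd60, and 59 and 65 without hyperoxia at pnd7. All 86 genes kept their sign wherever they could be tested in the alternatives, and 41 of the higher and 28 of the lower genes were called by DESeq2.

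Of the 4 genes of the CD4 lineage list that were tested, Zbtb7b and Cd40lg reached the count filter through CD4 T cells alone. Only a higher level could be called for them. Of the other 2 Gata3 was higher. Cd40lg was at 119, 102, 41.1 and 66.6 CPM in CD4 T cells and at 2.14, 6.0, 0 and 0 CPM in CD8 T cells. The CD8 T cells held 3 Cd40lg counts over all libraries against 109 in CD4 T cells, a ratio of the pooled levels of 53.1 (17.7 to 262), and the difference passed the test (adjusted p = 0.00038). Zbtb7b was at 61.1, 43.9, 75.7 and 64.7 CPM against 15.0, 9.0, 9.29 and 5.66 CPM, a log2 difference of 2.71 ± 0.32 (SE, edgeR adjusted p = 0.0015). Gata3, a transcription factor that also shapes type 2 helper cells, was at 139, 161, 262 and 331 CPM against 75.0, 42.0, 99.1 and 129 CPM, a log2 difference of 1.34 ± 0.18 (SE, adjusted p = 0.0033). For these 3 genes CD4 T cells were the higher class in 4 of 4 libraries. Tox was the member that did not pass, with a log2 difference of 0.55 ± 0.28.

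Of 9 tested members of the regulatory T cell list, Foxp3, Il2ra, Tnfrsf4 and Izumo1r reached the count filter through CD4 T cells alone. Only a higher level could be called for these 4. Of the other 5, Ctla4 and Ikzf2 were higher and 0 lower in CD4 T cells. Foxp3 (chrX:7579676-7595243) had 20, 11, 20 and 35 counts in CD4 T cells and 0 in every CD8 library, which made it at least 41.9-fold higher over the pooled libraries, with the floor of 3 counts over the group. Il2ra, the high-affinity chain of the interleukin-2 receptor, had 12, 7, 27 and 14 counts against 0 in CD8 T cells and was at least 29.3-fold higher. Without hyperoxia at pnd60 the bound of Foxp3 was 25.6-fold, and without air at pnd60 that of Il2ra was 16.4-fold. Ctla4, an inhibitory receptor, was at 149, 215, 268 and 245 CPM against 2.14, 3.0, 24.8 and 63.6 CPM (log2 difference 3.18 ± 0.43, adjusted p = 0.0033). Izumo1r, a folate receptor family member of regulatory and resting CD4 cells, was at 74.7, 102, 97.3 and 96.0 CPM against 12.9, 9.0, 9.29 and 5.66 CPM (3.32 ± 0.30, adjusted p = 0.00038). Ikzf2 (1.18 ± 0.17, adjusted p = 0.0039), which encodes Helios, and the costimulatory receptor Tnfrsf4 (2.96 ± 0.47, adjusted p = 0.0081) also passed, and Tnfrsf18 (1.14 ± 0.37), Capg (1.40 ± 0.32) and Nrp1 (-0.10 ± 0.31) did not. Ikzf2 was not called without cells with other-lineage counts (0.79, adjusted p = 0.081).

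Of 19 tested genes of activated and memory cells, 6 were higher in CD4 T cells and 0 lower, with a median of 0.48. The 6 were Icos (2.06 ± 0.36, adjusted p = 0.017), a costimulatory receptor, the calcium-binding proteins S100a4 (1.92 ± 0.23, adjusted p = 0.0016), S100a6 (1.60 ± 0.25, adjusted p = 0.0069) and S100a10 (0.80 ± 0.15, adjusted p = 0.024), the galectin Lgals1 (1.0 ± 0.19, adjusted p = 0.022) and Rgs1 (1.61 ± 0.34, adjusted p = 0.046). S100a4 was at 292, 561, 333 and 519 CPM in CD4 T cells and 114, 147, 119 and 67.9 CPM in CD8 T cells, and the 2 classes did not overlap over the 4 libraries. Cd44, Cd69 and Itgb1, which also mark activated cells, had log2 differences of -0.29 ± 0.35, -0.43 ± 0.20 and 0.48 ± 0.39 and did not pass. Without cells with other-lineage counts, Lgals1 (0.045, adjusted p = 0.96), S100a10 (0.012, adjusted p = 0.99) and S100a6 (0.59, adjusted p = 0.47) lost the call and most of the difference, while S100a4 kept it (1.25, adjusted p = 0.017). Lgals1 and S100a10 were also lost without the cell with most counts, and Lgals1 (0.81, adjusted p = 0.14) and Rgs1 (1.35, adjusted p = 0.11) without cells with genes of immature thymocytes. Icos reached the count filter through CD4 T cells alone, so only a higher level could be called for it.

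The naive and lymph node homing list had 18 tested genes, of which 2 were higher and 0 lower. These were Igfbp4 (1.33 ± 0.18, adjusted p = 0.0033), which binds insulin-like growth factors, and Ly6c1 (1.64 ± 0.26, adjusted p = 0.0075). Ccr7, Lef1, Tcf7 and Il7r, which keep T cells in circulation and at rest, had log2 differences from 0.017 to 0.44 and did not pass. Of 11 tested genes of T cell receptor signalling, Cd5 (1.51 ± 0.19, adjusted p = 0.0021) and Cd6 (1.02 ± 0.20, adjusted p = 0.036), receptors that dampen the signal, were higher, and none was lower. Cd5 was at 204, 166, 316 and 349 CPM against 51.4, 42.0, 122 and 149.9 CPM and was the higher in 4 of 4 libraries. Cd6 was not called without cells with other-lineage counts (0.67, adjusted p = 0.23).

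Genes of cytotoxic cells were lower in CD4 T cells, as 5 of the 6 tested members of the list passed in that direction and 0 in the other, with a median of -2.47. Nkg7, a granule protein, was at 44.2, 87.8, 97.3 and 108 CPM in CD4 T cells and 407, 315, 439.7 and 421 CPM in CD8 T cells, a log2 difference of -2.26 ± 0.20 (SE, edgeR adjusted p = 0.00038). Klrd1, the CD94 receptor subunit, was at 6.79, 4.88, 47.6 and 7.84 CPM against 382, 306, 235 and 332 CPM (-4.05 ± 0.44, adjusted p = 0.00095). Ctsw (-2.15 ± 0.28, adjusted p = 0.0023), Ccl5 (-2.69 ± 0.38, adjusted p = 0.004) and Gzma (-2.72 ± 0.50, adjusted p = 0.022) were lower too, and Gzmb had a log2 difference of 0.32 ± 0.60 and did not pass. Of 8 tested genes of immature thymocytes, 5 were lower (Rag1, Dntt, Arpp21, Myb and Cd24a) and 0 higher. Rag1, Dntt and Arpp21 reached the count filter through CD8 T cells alone. Myb was not called without cells with genes of immature thymocytes (-1.58, adjusted p = 0.13). Of the chemokine receptor and egress list, Ccr9, which draws cells to the gut and thymus, was lower (-2.30 ± 0.33, adjusted p = 0.0039) and Itgb7, an integrin chain of gut homing, higher (0.93 ± 0.19, adjusted p = 0.041), a call lost without cells with other-lineage counts (0.55, adjusted p = 0.2). Rag1, which cuts the T cell receptor genes in the thymus, was found in 0 of 42, 0 of 22, 1 of 167 and 1 of 180 CD4 T cells and in 13 of 56, 5 of 37, 9 of 208 and 4 of 238 CD8 T cells.

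The 10 genes with the smallest p in each direction held further members. Maf, a transcription factor of helper cells that make interleukins, was at 40.8, 39.0, 197 and 153 CPM against 6.43, 6.0, 24.8 and 8.48 CPM in CD8 T cells (log2 difference 3.23 ± 0.30, adjusted p = 0.00038), and Rora, a nuclear receptor, at 126, 68.3, 257 and 190.1 CPM against 21.4, 24.0, 58.8 and 53.7 CPM (1.99 ± 0.21, adjusted p = 0.00079). St8sia6 (4.14 ± 0.41, adjusted p = 0.00053), a sialyltransferase, Tmem64 (2.62 ± 0.26, adjusted p = 0.00064), Tspan32 (2.34 ± 0.27, adjusted p = 0.0014), Tesc (2.30 ± 0.24, adjusted p = 0.00086) and Ass1 (2.03 ± 0.24, adjusted p = 0.0015), which makes argininosuccinate, were higher. Ly6c2 (-3.99 ± 0.28, adjusted p = 0.00012), a surface protein of memory CD8 T cells, Ccl6 (-4.52 ± 0.34, adjusted p = 0.00013), Lpl (-3.58 ± 0.34, adjusted p = 0.0005), Plac8 (-3.72 ± 0.44, adjusted p = 0.0015), Fam241a (-2.50 ± 0.27, adjusted p = 0.001), Tmem108 (-2.34 ± 0.29, adjusted p = 0.002) and Cd7 (-1.73 ± 0.23, adjusted p = 0.0031) were lower. The 17 macrophage and monocyte genes summed to 495, 1809, 543 and 841 CPM in these CD8 T cells, against 132, 683, 238 and 490.0 CPM in CD4 T cells, and their part in the differences of Ccl6 and Lpl was not tested. Neither gene had enough counts to be tested without cells with other-lineage counts or without the cell with most counts. The lists of cell cycle (18 tested), immediate early (19), glycolysis (12), antioxidant (17), heat shock (8), senescence and p53 (11) and MHC class I genes (5) had 0 calls in either direction. At an unadjusted p under 0.05 the cell cycle list had 0 higher and 2 lower, the immediate early list had 2 higher and 4 lower, the glycolysis list had 4 higher and 0 lower, the antioxidant list had 1 higher and 1 lower, the heat shock list had 0 higher and 4 lower, the senescence and p53 list had 2 higher and 0 lower and the MHC class I list had 0 in either direction. Every gene of this comparison named here as higher or lower lay on the same side in 4 of 4 libraries. The genes were called on these same libraries, so this is a description and not a further test. Among the 50 higher genes the cell with most counts held a median of 5.07% of a gene's counts, and over 50% for 0 of them. Without that cell, 68 of the 86 called genes could be tested, and 39 of the higher and 23 of the lower genes were called again. Ribosomal protein genes, chosen after their values were seen, were called in neither direction in this comparison (76 tested, median log2 difference -0.032).

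**Figure D2:**
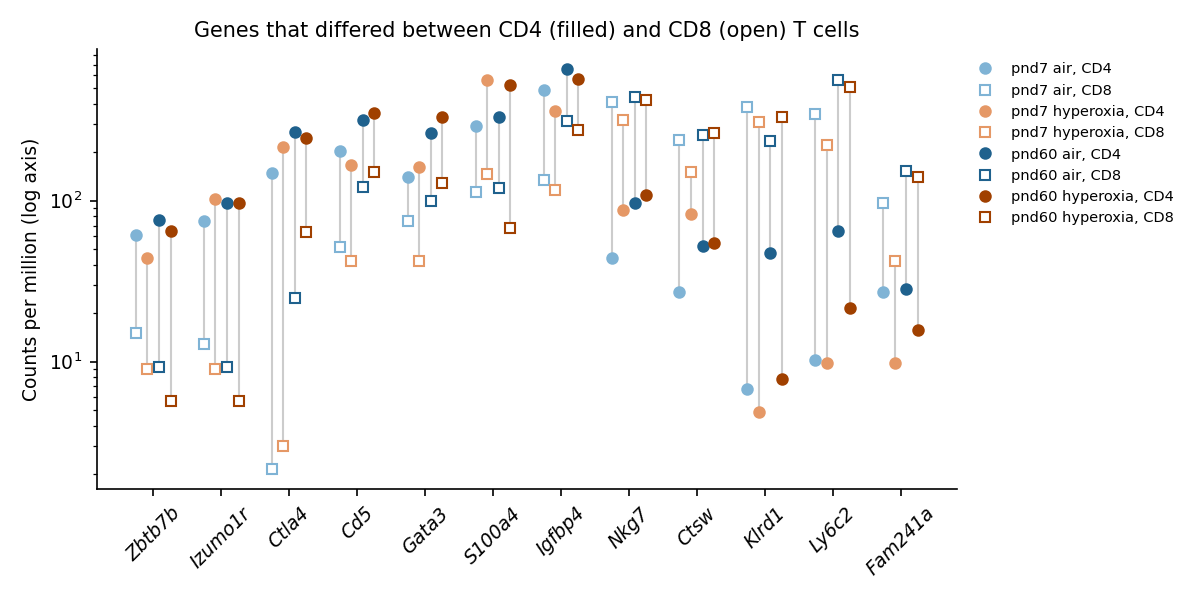
Levels of 12 genes that passed the test, in CPM on a log axis, for CD4 T cells (filled circles) and CD8 T cells (open squares) of the same library, joined by a line. The test used these same libraries, and Zbtb7b and Izumo1r reached its count filter through CD4 T cells alone. For the 7 genes on the left every filled circle lies above its open square, and for the 5 on the right every one lies below it.

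The cytokines of helper subsets were barely seen, while some receptors and transcription factors of the same lists were. The Th1 list summed to 129, 263, 474 and 431 CPM in CD4 T cells and 287, 288, 429 and 409 CPM in CD8 T cells, and 10 of 42, 6 of 22, 41 of 167 and 47 of 180 CD4 T cells held 2 or more counts of it. It was led at pnd60 by the interleukin-18 receptor Il18r1 with 83 and 88 counts. The type 2 list summed to 146, 97.5, 316 and 233 CPM, led by Rora in every library, and the Th17 and gamma delta list to 44.2, 39.0, 234 and 204 CPM, led by Maf in every library, and neither Rora nor Maf belongs to a single subset. Of the type 2 list, Il4 had 0, 1, 0 and 2 counts and Il5, Il13, Ptgdr2 and Ccr8 had 0, and Il1rl1, the interleukin-33 receptor, had 1, 0, 10 and 9. Of the Th17 and gamma delta list, Il17a had 0, 0, 3 and 0 counts, Ccr6 1, 0, 4 and 14, and Il23r 0. Of the Th1 list, Tbx21 had 1, 2, 12 and 5 counts and Ifng 0, 6, 7 and 6. At the floor of 3 counts, these depths could not show a gene under 10.2, 14.6, 6.49 and 5.88 CPM.

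Foxp3 was found in 7 of 42, 4 of 22, 13 of 167 and 13 of 180 CD4 T cells (16.7%, 18.2%, 7.78% and 7.22%), and in 0 CD8 T cells and 0 endothelial cells of any library. The exact 95% intervals of these shares ran from 6.97 to 31.4%, 5.19 to 40.3%, 4.21 to 12.9% and 3.90 to 12.0% and overlapped. With each cell thinned to 1000 counts, the shares were 2.38%, 4.55%, 2.99% and 5%. Within the CD4 T cells, those with a Foxp3 count held more of 9 of the 12 other regulatory genes in 4 of 4 libraries, and this split did not use these genes. Of the other 3, Klrg1 was higher with Foxp3 in 3 libraries and lower at pnd60 in air (22.8 against 45.4 CPM), Il10 was at 0 in both groups in 2 libraries, and Ltb was at 0 throughout. Ikzf2 was at 739, 693, 1438 and 1854 CPM in cells with Foxp3 and 47.7, 7.21, 139 and 57.8 CPM in the rest, and Ctla4 at 629, 647, 936 and 1854 CPM against 17.3, 7.21, 198 and 96.4 CPM. Il2ra was at 189, 105, 411 and 162 CPM against 0, 0, 21.5 and 15.0 CPM, and Tnfrsf18 at 220.2, 301, 228 and 371 CPM against 39.0, 36.1, 43.0 and 36.4 CPM. Lef1, a factor of naive cells, was at 252, 241, 456 and 92.7 CPM with Foxp3 and 485, 519, 649.8 and 818 CPM without, lower in 4 of 4 libraries. The groups with Foxp3 held 7, 4, 13 and 13 cells with medians of 7718, 18128.5, 2497 and 2655 counts per cell against 6015, 5822.5, 2340.5 and 2540, the deeper group in 4 of 4 libraries. Cells are not replicates, so no test was made.

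**Figure D3:**
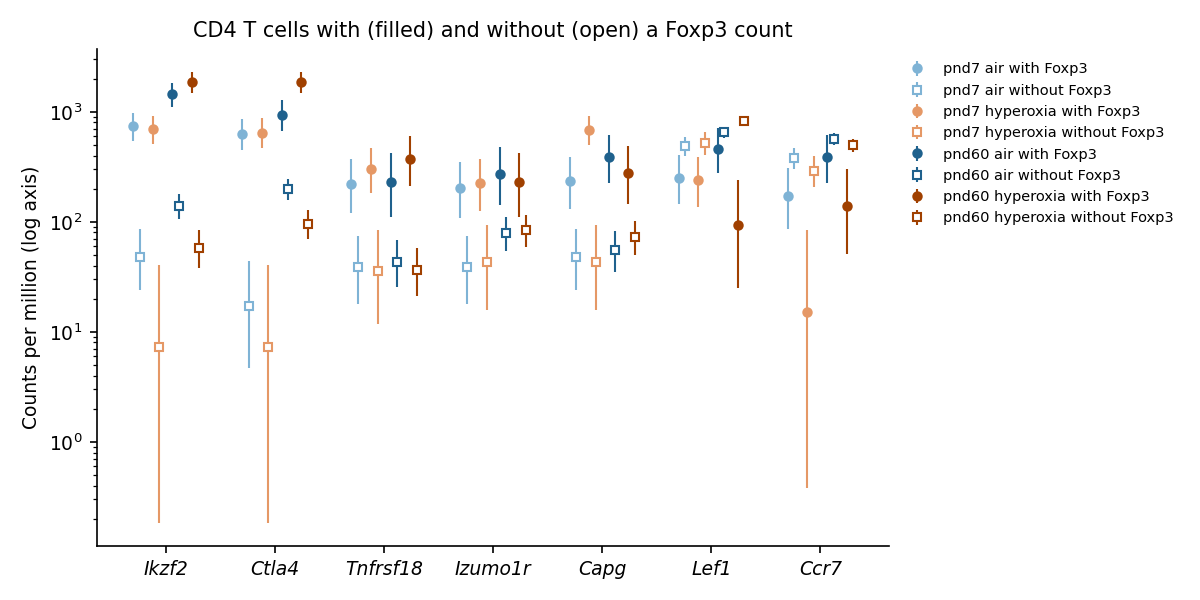
Levels of 7 genes in CD4 T cells with a Foxp3 count (filled circles) and without one (open squares) in each library, in CPM on a log axis, with exact 95% Poisson intervals that cover counting error only. Ikzf2, Ctla4, Tnfrsf18, Izumo1r and Capg are higher in cells with Foxp3 in every library, and Lef1 and Ccr7 are lower.

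Many genes differed between the ages over all 4 libraries. Far fewer were called when 1 of the pnd60 libraries was left out, but not when 1 of the pnd7 libraries was. In an additive fit of age and exposure, in which 2 libraries stood for each age, edgeR's quasi-likelihood test called 546 of 5884 genes (9.28%) higher and 895 (15.2%) lower at pnd60 than at pnd7, and the median log2 difference of all genes was 0.033. Of these, 202 of the higher and 88 of the lower genes reached the count filter through 1 age alone. The fit had 1 residual degree of freedom, whose spread was moderated over all genes, and the library, its depth per cell and the age cannot be told apart. Fits without 1 library also left out the exposure term. Without air at pnd60 18 genes were higher and 58 lower, and without hyperoxia at pnd60 25 and 66. DESeq2 called 52 higher and 285 lower. Without cells with other-lineage counts, 171 of 2235 genes were higher and 250 lower. In cells thinned to 1000 counts and chosen again, with 9 and 2 CD4 T cells at pnd7, 0 of 706 genes were called (64 higher and 11 lower at an unadjusted p under 0.05), and of the genes named below Itgb1 (-0.029) and Prdx1 (6.47) turned their sign. Where a list is described, its median in CD8 T cells and in endothelial cells of the same libraries is given beside it. All-gene medians were 0.30 in CD8 T cells and 0.21 in endothelial cells. The medians of these classes are over log2 ratios of CPM, averaged over air and hyperoxia, without the TMM factors of the fit. By such ratios the all-gene medians of CD4 T cells were 0.36 in air and 0.42 after hyperoxia, against 0.033 in the fit. List medians of CD4 T cells are therefore not on the same scale as those of the 2 other classes.

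Genes of naive, circulating T cells were higher at pnd60, with 8 of 18 higher and 1 lower. The median of the list was 0.41 in CD4 T cells, 1.27 in CD8 T cells and 0.91 over 12 genes in endothelial cells. Il7r, the receptor for the survival cytokine interleukin-7, was at 445, 215, 724 and 778 CPM, a log2 difference of 0.83 ± 0.22 (SE, edgeR adjusted p = 0.0017). S1pr1, which lets T cells leave tissue, was at 296, 180.4, 558 and 625 CPM (0.93 ± 0.24, adjusted p = 0.0012). For both genes the pnd60 libraries were above both pnd7 libraries, and hyperoxia at pnd7 had the lowest level. Foxp1 (1.0 ± 0.21, adjusted p = 2.1e-05), Bach2 (1.18 ± 0.26, adjusted p = 7.1e-05), Satb1 (0.61 ± 0.17, adjusted p = 0.0029), Tcf7 (0.47 ± 0.17, adjusted p = 0.032) and the integrin Itga6 (1.31 ± 0.34, adjusted p = 0.0013) rose as well. Dapl1 was called lower, at 169.9, 244, 169 and 114 CPM (-0.92 ± 0.29, adjusted p = 0.01), although its CPM in air was nearly the same at both ages. CPM do not carry the TMM factors of the fit. Ccr7 (0.56 ± 0.24), Lef1 (0.29 ± 0.21) and Klf2 (0.058 ± 0.17) did not pass. Without cells with other-lineage counts the list had 3 higher and 0 lower of 18 and a median of 0.090, and S1pr1 (0.55), Satb1 (0.37), Tcf7 (0.034), Itga6 (1.03) and Dapl1 (-0.44) were not called. Tcf7 was also lost without the cell with most counts (0.35) and without cells with genes of immature thymocytes (0.39).

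The activated and memory list was split, with 5 of 18 higher and 4 lower and a median of -0.27 (-0.52 over 15 genes in CD8 T cells and -0.84 over 13 genes in endothelial cells). Cd44, the hyaluronan receptor that memory cells keep, was at 23.8, 97.5, 186 and 209.7 CPM (1.45 ± 0.36, adjusted p = 0.00056), and Cd69, an early activation marker that also holds cells in tissue, at 74.7, 39.0, 205 and 208 CPM (1.44 ± 0.35, adjusted p = 0.00047). Itgb1 (1.19 ± 0.28, adjusted p = 0.00023), Id2 (0.99 ± 0.27, adjusted p = 0.0028) and Ahnak (0.66 ± 0.24, adjusted p = 0.031) rose too. Lgals1 was at 1059.9, 1531, 536 and 551 CPM (-1.62 ± 0.18, adjusted p = 1.1e-17) and Crip1 at 1824, 1331, 673 and 949 CPM (-1.35 ± 0.16, adjusted p = 2.1e-15), and both fell together with S100a6 (-1.15 ± 0.19, adjusted p = 1.1e-07) and S100a10 (-1.34 ± 0.18, adjusted p = 1.4e-11). The levels at the 2 ages did not overlap for Cd44, Cd69, Lgals1 or Crip1. The list had 6 higher and 5 lower without the cell with most counts of each gene and 3 higher and 3 lower of 13 without cells with other-lineage counts, and its median turned to 0.15 and 0.45. In the second setting Cd69 (1.04), Itgb1 (0.56) and S100a6 (-0.14) were not called. At pnd7 the cell with most counts held 50% and 82.5% of the Id2 counts of the 2 libraries and 36.5% and 28.7% of the Lgals1 counts.

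Immediate early genes, which respond within minutes to receptor signals and also to tissue dissociation, were higher at pnd60, with 10 of 18 higher and 0 lower. Their median was 0.70 in CD4 T cells, 0.80 in CD8 T cells and 0.69 in endothelial cells. Klf6 was at 241, 161, 822 and 915 CPM (1.71 ± 0.23, adjusted p = 1.4e-11), Fosb at 23.8, 43.9, 162 and 174 CPM (1.97 ± 0.40, adjusted p = 1.8e-05), and Tnfaip3, an inhibitor of NF-kB signalling, at 122, 176, 422 and 357 CPM (1.02 ± 0.27, adjusted p = 0.0018). Both pnd60 libraries exceeded both pnd7 libraries for each of them. Dusp1, Zfp36, Zfp36l2, Btg1, Btg2, Nr4a1 and Fos rose by 0.69 to 1.21 on the log2 scale. Fos was not called without the cell that held most of its counts (0.52, adjusted p = 0.13) or without cells with other-lineage counts (0.99, adjusted p = 0.086), and neither Fos nor Nr4a1 without cells with genes of immature thymocytes. The count was 10 of 18 without the cell that held most of each gene, with Jun in the place of Fos, while 6 of 16 passed when the same cells were thinned to 1000 counts, and 9 of 16 without cells with other-lineage counts.

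Among chemokine and cytokine receptors 1 of 9 and 2 of 14 genes were called higher, beside 9.28% of all genes. Cxcr4, the receptor for Cxcl12, was at 10.2, 14.6, 167 and 109.8 CPM (3.14 ± 0.52, adjusted p = 6.9e-08) and was the 1 gene called on the chemokine receptor and egress list, whose median was 0.24 in CD4 T cells, 1.04 over 8 genes in CD8 T cells and 1.07 over 4 genes in endothelial cells. Il18r1, the interleukin-18 receptor, was at 20.4, 4.88, 179.5 and 172 CPM (3.28 ± 0.48, adjusted p = 6.1e-10). In both cases each pnd60 library was well above each pnd7 library. Both genes reached the count filter through the pnd60 libraries alone, so only a rise could be called for them. Of 14 genes of gamma chain cytokine receptors and STAT5 targets, Il2rg (0.91 ± 0.28, adjusted p = 0.0082), the shared gamma chain, and Stat3 (1.01 ± 0.34, adjusted p = 0.016) rose and 0 fell, with a median of 0.37 in CD4 T cells, 1.34 in CD8 T cells and 0.71 over 11 genes in endothelial cells. Il2rg was not called without cells with other-lineage counts (0.76). The helper factors Maf (1.76 ± 0.39, adjusted p = 8.0e-05) and Rora (0.82 ± 0.31, adjusted p = 0.039), with the levels given above, rose. DESeq2 called neither of them, and it called 0 genes lower on the CD4 lineage list, which holds Cd40lg. Cd40lg fell (-1.45 ± 0.37, adjusted p = 0.00092), and of 11 regulatory genes 0 rose and Tnfrsf4 (-1.35 ± 0.41, adjusted p = 0.0064), Tnfrsf18 (-1.03 ± 0.37, adjusted p = 0.026) and Capg (-1.22 ± 0.32, adjusted p = 0.0015) fell, while Foxp3 (-0.55 ± 0.41) and Ctla4 (0.13 ± 0.28) did not pass. The median of the regulatory list was -0.24 in CD4 T cells, and 3 and 2 of its genes were tested in CD8 T cells and endothelial cells, too few to set beside it. When cells with other-lineage counts were left out it had 1 higher and 0 lower of 4 with a median of 0.39, where Capg turned to 0.11 and Cd40lg was not called (-1.36), and without the cell with most counts Tnfrsf4 was not called (-0.81).

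Genes of dividing cells were lower at pnd60, with 11 of 17 lower and 0 higher and a median of -1.23. Top2a, which untangles DNA, was at 292, 463, 173 and 176 CPM (-1.47 ± 0.26, adjusted p = 4.9e-07) and Mki67 at 251, 258, 99.5 and 135 CPM (-1.52 ± 0.29, adjusted p = 2.8e-06). The medians of the list were -3.02 over 16 genes in CD8 T cells and -3.46 in endothelial cells. Cells with 2 or more counts of Mki67 and Top2a together were 6 of 42, 2 of 22, 4 of 167 and 7 of 180 CD4 T cells. In hyperoxia at pnd7, 1 cell held 95.8% of the Top2a counts and 88.7% of the Mki67 counts. Without the cell with most counts of each gene, 5 of 13 tested genes were lower and Top2a was not called (-0.31), and without cells with other-lineage counts 0 of 5, with 0 higher. Pcna (0.82 ± 0.34) and Mcm6 (0.53 ± 0.43), of DNA replication, did not pass.

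Genes of glycolysis and chaperones were lower at pnd60. Of 12 glycolysis genes 7 were lower and 0 higher, with a median of -0.92 (-0.49 in CD8 T cells and -0.39 in endothelial cells). Ldha, which makes lactate, was at 608, 770.4, 285 and 267 CPM (-1.70 ± 0.22, adjusted p = 2.1e-12) and Gapdh at 1070.1, 1838, 606 and 655 CPM (-1.55 ± 0.17, adjusted p = 7.5e-18), and the ages did not overlap for either. Of 8 heat shock genes 5 were lower and 0 higher (median -0.81 in CD4 T cells, -0.43 in CD8 T cells and -0.80 in endothelial cells), led by the chaperone Hsp90ab1 at 1409.8, 1575, 798 and 643 CPM (-1.44 ± 0.16, adjusted p = 1.6e-16). Of 16 antioxidant genes 7 were lower and 3 higher, with a median of -0.58 in CD4 T cells, -0.69 in CD8 T cells and -0.45 in endothelial cells. The peroxiredoxins Prdx1 (-0.99 ± 0.24, adjusted p = 0.00058), Prdx2 (-1.45 ± 0.31, adjusted p = 6.4e-05) and Prdx5 (-1.28 ± 0.32, adjusted p = 0.00087) and thioredoxin Txn1 (-1.39 ± 0.28, adjusted p = 1.3e-05) fell. Sod1, the cytosolic superoxide dismutase, was at 57.8, 63.4, 433 and 274 CPM (2.18 ± 0.33, adjusted p = 2.2e-09) and rose, as did Gclc (2.13 ± 0.50, adjusted p = 0.00022), of glutathione synthesis, and Txnip (0.75 ± 0.19, adjusted p = 0.00087). Without cells with other-lineage counts, glycolysis had 0 higher and 2 lower of 7 (median -0.70), heat shock 0 higher and 1 lower of 6 (-0.30) and the antioxidant list 2 higher and 2 lower of 11 (-0.65), and Prdx1 (-0.56), Prdx5 (-0.95) and Txn1 (-1.02) were not called. DESeq2 called fewer members of these lists, with 0 higher and 0 lower on the regulatory list (11 tested), 0 higher and 0 lower on the gamma chain list (14 tested), 2 higher and 0 lower on the naive list, 1 higher and 4 lower on the activated and memory list, 3 higher and 0 lower on the immediate early list, 0 higher and 6 lower on the cell cycle list, 0 higher and 2 lower on the glycolysis list, 0 higher and 2 lower on the heat shock list and 1 higher and 2 lower on the antioxidant list.

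Among the genes with the smallest p, those that fell were the hemoglobins Hbb-bs, Hbb-bt, Hba-a1 and Hba-a2, the thymosins Tmsb4x (16754.5, 19412, 8313 and 8405 CPM, -1.50 ± 0.056, adjusted p = 9.0e-145) and Tmsb10 (-1.63 ± 0.069, adjusted p = 2.7e-116), and ribosomal protein genes. Hbb-bt, Hba-a1 and Hba-a2 reached the count filter through the pnd7 libraries alone, so only a fall could be called for them. Rplp0 was at 7232, 6856, 3103 and 3046 CPM (-1.58 ± 0.086, adjusted p = 4.3e-70), and Rps20, Rpl32 and Rps13 fell by 1.45 to 1.64 on the log2 scale. Over all ribosomal protein genes, a group chosen after these values were seen, 62 of 76 were lower and 10 higher, with a median of -0.92. Ribosomal proteins took 27.8%, 26.6%, 20.7% and 21.0% of the counts of CD4 T cells, 24.9%, 21.5%, 24.7% and 24.9% of those of CD8 T cells and 10.8%, 11.8%, 4.23% and 4.81% of those of endothelial cells. Rps15 went the other way, at 764, 683, 3222 and 3226 CPM (1.77 ± 0.14, adjusted p = 3.4e-34). Those with the smallest p that rose included genes of other lung cells. Scd1, Inmt and Gpx3 had 0 counts in both pnd7 libraries and 434 and 15, 142 and 175, and 112 and 72 at pnd60, which made them at least 76.9-fold, 54.3-fold and 31.5-fold higher over the pooled libraries with the floor of 3 counts over the group. Of the 434 Scd1 counts, 304 were in 1 cell, and without air at pnd60 its bound was 4.90-fold. The bounds of the 3 genes were 31.6, 22.3 and 12.9-fold without air at pnd7 and 45.3, 32.0 and 18.6-fold without hyperoxia at pnd7. Without hyperoxia at pnd60 that of Scd1 was 156-fold. Sftpc, Scgb1a1, Mgp, Gsn and Cd74 rose too, beside the levels of epithelial and mesenchymal genes given above, and without air at pnd60, where 1 cell held most Sftpc counts, the difference of Sftpc turned to -0.39. Mgp and Cd74 reached the count filter through the pnd60 libraries alone, so only a rise could be called for them. Zbtb20, a transcription factor, was at 30.6, 24.4, 381 and 309.7 CPM (3.26 ± 0.38, adjusted p = 2.2e-15).

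Of 12 tested interferon-stimulated genes and 5 genes of MHC class I, which display antigen, 1 of each list was called higher and 1 lower, beside 9.28% and 15.2% of all genes. Ly6e (1.07 ± 0.20, adjusted p = 3.4e-06) and B2m (0.53 ± 0.14, adjusted p = 0.0011), the light chain of MHC class I, rose, and Ifi27l2a (-0.69 ± 0.20, adjusted p = 0.0061) and the immunoproteasome subunit Psmb9 (-1.63 ± 0.32, adjusted p = 5.4e-06) fell. Without air at pnd7 the difference of Ifi27l2a turned to 0.17, and Psmb9 was not called without cells with other-lineage counts (-1.44). The medians were -0.050 over 12 interferon-stimulated genes and -0.054 over 5 genes of MHC class I, where CD8 T cells had 1.32 and 0.64 and endothelial cells 1.81 over 11 genes and 1.70. The interferon-stimulated median was 0.40 over 8 genes without cells with other-lineage counts. Of 12 genes of senescence and the p53 pathway, Mdm2 (1.25 ± 0.39, adjusted p = 0.01) and Trp53inp1 (0.90 ± 0.31, adjusted p = 0.019) rose and Bax (-1.03 ± 0.33, adjusted p = 0.013) and Hmgb1 (-1.50 ± 0.19, adjusted p = 4.4e-14) fell, with a median of 0.029 in CD4 T cells, 0.42 over 11 genes in CD8 T cells and -0.045 in endothelial cells. Of these, Mdm2 (0.94), Trp53inp1 (0.75) and Bax (-0.35) were not called without cells with other-lineage counts. DESeq2 called 1 higher and 0 lower on the interferon-stimulated list, 0 higher and 1 lower on the MHC class I list and 0 higher and 1 lower on the senescence and p53 list. Cdkn1a, which encodes p21, had 1, 0, 1 and 0 counts in the CD4 T cells of the 4 libraries and Cdkn2a 2, 0, 0 and 0, too few for any comparison.

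**Figure D4:**
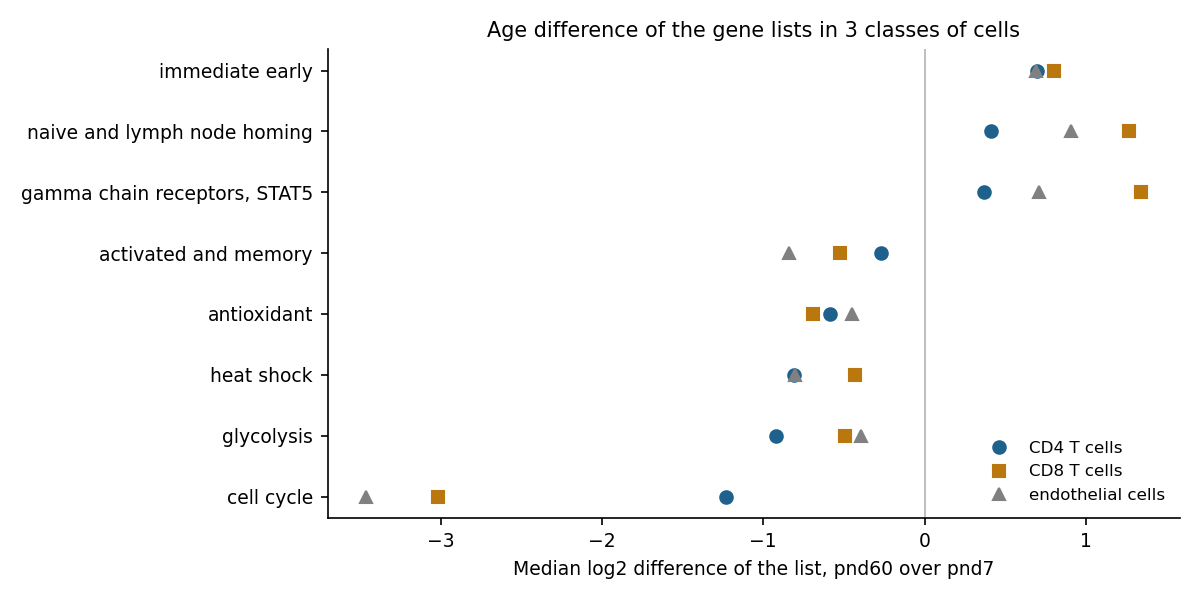
Median log2 difference of 8 gene lists between pnd60 and pnd7 in CD4 T cells (circles), CD8 T cells (squares) and endothelial cells (triangles), each over the members tested in that class. Values of CD4 T cells are from the edgeR fit with TMM factors and the others from log2 ratios of CPM, so the scales differ. Immediate early and naive genes lie to the right of 0 and heat shock, glycolysis and cell cycle genes to the left in all 3 classes, and the cell cycle list lies nearest to 0 in CD4 T cells.

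Whether CD4 T cells changed with age as CD8 T cells did was tested in 1 edgeR fit over both classes with the library as a block. Of 7550 genes, 164 (2.17%) had a higher and 113 (1.5%) a lower age change in CD4 than in CD8 T cells. DESeq2 gave 7 and 46, and edgeR 3 and 30 of 3457 genes without cells with other-lineage counts, 89 and 58 without cells with genes of immature thymocytes, 108 and 20 without air at pnd60 and 117 and 19 without hyperoxia at pnd60. On the cell cycle list 15 of 20 genes had a higher and 0 a lower change, among them Mki67, whose difference was 2.92 ± 0.42 (SE, adjusted p = 0.00013). Mki67 went from 251 and 258 CPM at pnd7 to 99.5 and 135 CPM at pnd60 in CD4 T cells and from 266 and 483 to 29.4 and 11.3 CPM in CD8 T cells, a smaller difference between the ages in CD4 T cells. Cells with 2 or more counts of Mki67 and Top2a together were 15 of 56, 12 of 37, 2 of 208 and 3 of 238 CD8 T cells. Cd44 (2.13 ± 0.35, adjusted p = 0.00062) and Itgb1 (2.16 ± 0.32, adjusted p = 0.00022) had a higher age change too. Of 18 naive and homing genes 5 had a lower and 0 a higher change, including Il7r (-0.93 ± 0.22, adjusted p = 0.012) and Dapl1 (-3.17 ± 0.37, adjusted p = 1.4e-05), which stood at 40.7, 39.0, 215 and 253 CPM in CD8 T cells. Of 77 ribosomal protein genes, 53 had a lower and 0 a higher change. These counts moved with the cells and libraries used. The cell cycle list had 1 of 7 higher without cells with other-lineage counts, 6 of 18 without cells with genes of immature thymocytes and 4 of 20 with DESeq2. The naive list had 1 lower without other-lineage counts, where Il7r turned to 0.17 and Cd44 (1.76) and Itgb1 (0.50) were not called, and the ribosomal genes had 27 of 75 lower there and 0 of 77 without either pnd60 library. Markers of other cells moved in the same fit, with 5 of 9 mesenchymal, 3 of 5 epithelial and 3 of 8 immature thymic genes having a higher change and 0 a lower one. Genes of immature thymocytes were found in 14 of 56, 8 of 37, 11 of 208 and 5 of 238 CD8 T cells and in 1 of 42, 0 of 22, 5 of 167 and 7 of 180 CD4 T cells.

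Few genes differed between CD4 T cells of hyperoxia-exposed and air-raised mice over both ages. In the same additive fit, edgeR called 12 of 5884 genes (0.204%) higher and 6 (0.102%) lower after hyperoxia. Fits of exposure without 1 library also left out the age term. DESeq2 called 0 in either direction (15 higher and 2 lower at an unadjusted p under 0.05), and without 1 library edgeR called 5 to 12 higher and 2 to 16 lower, with 7 and 7 without air at pnd7, 6 and 12 without hyperoxia at pnd7, 5 and 2 without air at pnd60 and 12 and 16 without hyperoxia at pnd60. For 11 of the 18 genes, over 50% of the counts on the higher side came from a single CD4 T cell, and without the cell with most counts of each gene 1 gene was higher and 4 were lower. Tyrobp, an adaptor of myeloid and NK cells, had 0, 28, 2 and 15 counts, and all 28 of hyperoxia at pnd7 were in 1 cell, which also held all 36 Lyz2 and all 16 Lrp1 counts of that library. Another cell of that library held all 34 counts of the granzyme gene Gzmb and 26 of 33 of the chemokine gene Ccl5. At pnd60 after hyperoxia, 1 cell held 197 of 227 Cd74 and all 28 C1qa counts. On the side of air, 1 cell at pnd7 held all 84 Scn7a counts, another 1183 of 1283 Hbb-bt counts, and 1 cell at pnd60 held 1644 Sftpc, 304 of 434 Scd1 and 129 of 242 Sftpa1 counts.

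Junb (chr8:84976909-84978748), a subunit of the AP-1 transcription factor, was the called gene with the smallest share of counts in 1 cell. It was at 1403, 1907, 1639 and 2605 CPM in CD4 T cells, and the cell with most counts held 2.56% of the counts after hyperoxia. Its level was higher after hyperoxia at both ages, by 0.44 (0.24 to 0.65) at pnd7 and 0.67 (0.54 to 0.80) at pnd60 on the log2 scale, with counting intervals. The additive fit gave 0.55 ± 0.13 (SE, edgeR adjusted p = 0.014). Junb was called again without the cell with most counts (0.61, adjusted p = 6.8e-05), and not without cells with other-lineage counts (0.64, adjusted p = 0.11), without cells with genes of immature thymocytes (0.50, adjusted p = 0.17) or with no filter on low counts (0.54, adjusted p = 0.19). It was not called without any 1 of the 4 libraries either, where the log2 difference was 0.47 to 0.65. Those fits also left out the age term, and without that term alone Junb was not called over all 4 libraries (0.54, adjusted p = 1). In CD8 T cells Junb was at 1217, 1002, 1689 and 2165 CPM, lower after hyperoxia at pnd7 and higher at pnd60, and in endothelial cells at 435, 493, 424 and 518 CPM. DESeq2 did not call it (log2 difference 0.57, adjusted p = 1). In the same cells thinned to 1000 counts it was called (0.65, adjusted p = 0.044). In cells thinned and chosen again the difference turned to -0.11. Junb was the 1 gene called of 18 on the immediate early list, whose median was 0.067, with Fos at 0.24 ± 0.26 and Jun at 0.071 ± 0.28.

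Actb, of the cytoskeleton, was at 10680.5, 14365, 11514 and 12055 CPM (0.23 ± 0.058, adjusted p = 0.021). Hyperoxia at pnd7 stood above the 3 other libraries, with 28.0% of its counts in 1 cell. The lists of naive genes (18 tested), activated and memory genes (18), regulatory genes (11), cell cycle (17), interferon-stimulated genes (12), antioxidant genes (16), glycolysis (12), heat shock (8) and senescence and p53 genes (12) had 0 calls in either direction. At an unadjusted p under 0.05 the activated and memory list had 2 higher and 0 lower, the regulatory T list had 3 higher and 0 lower, the cell cycle list had 5 higher and 0 lower, the interferon-stimulated list had 0 higher and 2 lower, the antioxidant list had 1 higher and 2 lower, the glycolysis list had 3 higher and 0 lower, the senescence and p53 list had 1 higher and 0 lower and the naive and heat shock lists had 0 in either direction. Their medians ran from -0.15 to 0.36, beside -0.022 for all genes. Over all 5884 genes, 116 were higher and 112 lower at an unadjusted p under 0.05.

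**Figure D5:**
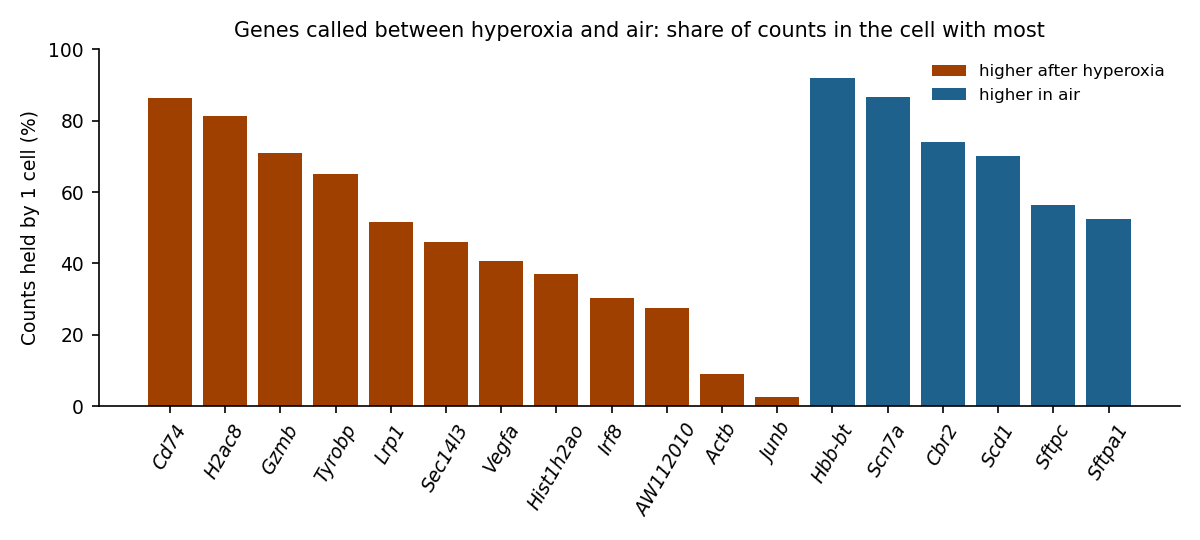
Share of the counts on the higher side that the single richest CD4 T cell held, in percent, for the 18 genes called between hyperoxia and air. Bars for Junb (2.56%) and Actb (9.07%) are low, and 11 of the 18 bars lie above 50%.

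Within each age, 2 libraries could be set side by side without a test. At pnd7, 85 of 2516 genes with 30 or more counts over both libraries were past 2-fold higher after hyperoxia (3.38%) and 119 past 2-fold lower (4.73%). At pnd60, 82 of 5368 genes were past 2-fold higher (1.53%) and 67 lower (1.25%). The extremes at pnd7 were again genes of 1 cell, with 98.7% of the 79 counts of Penk, the enkephalin precursor, in 1 cell of hyperoxia and 98.9% of the 92 counts of Akr1c18, a steroid-converting enzyme, in 1 cell of air. Lyz2, Gzmb, Ccl5 and Fcer1g completed the highest 5, and Scn7a, Rgcc, Ctdsp2 and Itgb3 the lowest 5. Ctdsp2, a phosphatase, was among the more spread of these, with 34, 5, 90 and 89 counts, a log2 ratio of -2.24 (-3.96 to -0.88) and the top cell at 17.6% in air, against a ratio of -0.16 (-0.60 to 0.28) at pnd60. At pnd60 the highest were Rtkn2, C1qb, Col4a4, Hist1h2ao and Vegfa and the lowest Chil1, Lamp3, Scd1, Slc34a2 and Sftpc, the last 5 being genes of alveolar type II cells, beside an epithelial sum of 7295 CPM in air and 980.1 CPM after hyperoxia.

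Genes that T cells use in circulation and activation were read the same way. At pnd7, Il7r was lower after hyperoxia (-1.05, -1.58 to -0.55 on the log2 scale), as was Ifi27l2a (-1.62, -1.99 to -1.27), which responds to interferon. At pnd60 the ratios were 0.10 (-0.11 to 0.32) and 0.35 (0.11 to 0.60). Tnfrsf4, Cd44 and Klrg1, of activated and regulatory cells, were higher after hyperoxia at pnd7 by 1.74 (0.72 to 2.85), 2.04 (0.74 to 3.52) and 3.33 (1.81 to 5.30), where 1 cell held 53.6%, 45% and 85.7% of the counts, and at pnd60 they were at 0.21 (-0.74 to 1.19), 0.17 (-0.25 to 0.60) and -0.14 (-1.11 to 0.83). With 42 and 22 cells at pnd7, the counting intervals do not cover the spread between cells or mice. Foxp3 was at -0.34 (-1.55 to 0.79) and 0.67 (-0.17 to 1.54), and both intervals held 0.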

How the data were processed

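Lungs of C57BL/6J mice were profiled with 10x Chromium 3′ v3.1 chemistry in 5 libraries. Per the labels, Cell Ranger 3.1.0 and Seurat 3.2.1 were used with mm10, and the annotation (42454 features, 2 of them mitochondrial) is not given in the sources used here. The authors deposited filtered matrices of unnormalized counts per gene and barcode (1 count for each molecular identifier), and 0 columns belonged to other samples. Here, counts of the chosen cells were summed per library (294369, 205081, 462390 and 510160 counts), scaled to CPM, and tested with edgeR 4.0.16 (quasi-likelihood test, TMM factors, filterByExpr, Benjamini-Hochberg adjustment over all genes tested, threshold 0.05) in R 4.3.3. Shares have exact Clopper-Pearson and levels exact Poisson 95% intervals (scipy 1.17.1), ratios intervals from the binomial distribution. Only counting error enters the intervals and the floor of 3 counts. As there was 1 library in each condition, p-values measure the spread between libraries, which may be technical. Doublets were kept, and Scrublet (scanpy 1.11.5) was an alternative that called 1, 4, 138 and 156 filtered cells and so did not work at pnd7.

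Genes could be named when they stood on 1 of 31 lists (410 genes), were among the 10 called genes with the smallest p in a direction of a fit, or were among the 5 highest or lowest ratios of 2 libraries with 30 or more counts. Some listed genes are not reported here. Members and lists were chosen with earlier results of these data known. Gene coordinates are those of the RefSeq gene table for mm10. The fits were tested on simulated data. Alternatives were other filters on cells and genes, DESeq2 1.42.0, other size factors, thinning to 1000 counts, removal of cells with other-lineage counts, and leaving out each library. With 1 library left out, the age fit in CD4 T cells had no exposure term and the exposure fit no age term.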

Additional observations from a re-analysis of the deposited data

Results flagged for a closer look

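The age change of CD4 T cells differed from that of CD8 T cells, in an edgeR fit over both classes, for 59 of the genes that could be named. The 17 of them that stand on the lists of T cell types and states and also changed with age in CD4 T cells are given here. Of genes of dividing cells and their chromatin, the log2 change from pnd7 to pnd60 was higher in CD4 T cells for Ccna2 (2.64, adjusted p = 0.0073), H2afz (0.906, adjusted p = 0.0052), Stmn1 (2.0, adjusted p = 7.2e-05), Hmgb1 (0.901, adjusted p = 0.0022), Mki67 (2.92, adjusted p = 0.00013), Hmgb2 (1.63, adjusted p = 1.9e-06), Cdk1 (2.41, adjusted p = 0.032), Top2a (2.52, adjusted p = 5.6e-05), Birc5 (2.0, adjusted p = 0.024) and Tuba1b (0.925, adjusted p = 0.0087). Of the others, the difference was Dapl1 (-3.17, adjusted p = 1.4e-05), Cd44 (2.13, adjusted p = 0.00062), Txnip (-1.21, adjusted p = 0.00063), Itgb1 (2.16, adjusted p = 0.00022), Btg1 (-0.692, adjusted p = 0.019), Gzma (5.13, adjusted p = 0.00063) and Il7r (-0.929, adjusted p = 0.012). For Gzma, a granzyme of cytotoxic cells, CD4 T cells held 0, 1, 29 and 36 counts, and 1 cell held 72.4% and 97.2% of them at pnd60 in air and after hyperoxia, and without the cell with most counts Gzma did not pass (4.08). Dapl1 was at 169.9, 244, 169 and 114 CPM in CD4 T cells and 40.7, 39.0, 215 and 253 CPM in CD8 T cells, so the order of the ages was opposite in the 2 classes when the mean of each age is taken. Without cells with other-lineage counts, Dapl1 and Hmgb2 passed again, 9 genes did not pass, 4 could not be tested and Gzma (-1.10) and Il7r (0.17) turned their sign. Without cells with genes of immature thymocytes, 9 of the 17 passed.

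A further 5 genes had log2 ratios of hyperoxia to air in CD4 T cells that lay on opposite sides of 0 at pnd7 and pnd60 with counting intervals that did not hold 0, and the difference between the ages was not tested. The ratio of Crip1 was -0.455 at pnd7 and 0.496 at pnd60, and 1 cell held 38.8% of the counts of hyperoxia at pnd7. That of Id2 was 0.756 at pnd7 and -0.670 at pnd60, and 1 cell held 82.5% of the counts of hyperoxia at pnd7. That of Ifi27l2a was -1.62 at pnd7 and 0.351 at pnd60, and 1 cell held 24.7% of the counts of hyperoxia at pnd60. That of Irf1 was 0.911 at pnd7 and -0.572 at pnd60, and 1 cell held 44.7% of the counts of hyperoxia at pnd7. That of Lmnb1 was 1.20 at pnd7 and -0.634 at pnd60, and 1 cell held 72.5% of the counts of hyperoxia at pnd7. Ifi27l2a responds to interferon, as does Irf1.

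Cells that held both Cd4 and Cd8 counts were outside the rule. Rag1 was found in 24 of 30 (80%), 9 of 10 (90%), 26 of 32 (81.2%) and 12 of 19 (63.2%) of them, against 0 of 42, 0 of 22, 1 of 167 and 1 of 180 CD4 T cells, so these cells carried a gene of immature thymocytes at both ages.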

How the results depend on the processing

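No paired analysis of ages or exposures was possible because all 4 conditions had a single library and their replicate number, 1, pairs nothing between them. CD4 and CD8 T cells were compared within libraries, with the library as a block. Counts of genes are given as higher and lower, and where a value changed, the cause was not tested. Between CD4 and CD8 T cells they were 50 and 36, 3 and 10 in cells thinned to 1000 counts and chosen again, 24 and 23 in the chosen cells thinned, 138 and 283 with no filter on low counts, 10 and 7 with no library block, 255 and 313 in the pnd60 and 130 and 215 in the pnd7 libraries only, 51 and 61 without cells with immature thymic genes, and 26 to 59 and 25 to 65 without 1 library. Between pnd60 and pnd7 they were 546 and 895, 171 and 250 without cells with other-lineage counts, 0 and 0 of 706 genes in cells thinned and chosen again (64 and 11 at an unadjusted p under 0.05, with 9 and 2 CD4 T cells at pnd7), 100 and 169 in the chosen cells thinned, 52 and 285 with DESeq2 and 18 to 666 and 58 to 983 without 1 library. Between hyperoxia and air they were 12 and 6, 0 and 4 without cells with other-lineage counts (25 and 49 at an unadjusted p under 0.05), 7 and 6 without doublets, 0 and 0 thinned and chosen again (2 and 2), 1 and 1 in the chosen cells thinned, 0 and 0 with DESeq2 (15 and 2), 20 and 13 with no filter, 0 and 0 with no age term (12 and 10), 1 and 4 without each gene's top cell and 5 to 12 and 2 to 16 without 1 library. For the age change in CD4 minus that in CD8 T cells they were 164 and 113, 7 and 46 with DESeq2, 3 and 30 without cells with other-lineage counts, 89 and 58 without cells with immature thymic genes, 25 and 47 in the chosen cells thinned and 108 to 213 and 19 to 245 without 1 library, and Ccr7 (0.028), Gzma (-1.10) and Il7r (0.17) turned their sign without cells with other-lineage counts. Thinning cells, this difference and its alternatives, the pnd60-only and pnd7-only fits, the immature thymic genes and the top cells were in part chosen after seeing the data. The share of filtered cells became 9.26%, 8.25%, 7.20% and 7.39% without cells with other-lineage counts, which also shrinks the cells it is taken over, and 0.391%, 0.161%, 1.83% and 1.66% after thinning. Genes past 2-fold between hyperoxia and air at pnd7 were 1.14% higher with 100 counts as the least, and 13.8%, 2.94% and 1.46% lower after thinning, without other-lineage counts and with 100 counts. At pnd60 they were 0.344% higher with 100 counts, and 2.28%, 2.13% and 0.515% lower under the same alternatives.

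Some log2 differences of single genes turned their sign, and where leaving out 1 library did so the range over the 4 such fits is given. Those fits had no term for the other factor, which was not balanced between their groups. Between the ages these were Capg (0.11) and Tuba1b (0.40) without cells with other-lineage counts, Fth1 (0.18), Hsp90aa1 (1.09), Hspe1 (0.22), Itgb1 (-0.029) and Prdx1 (6.47) after thinning, and, the highest or lowest value turning, Ifi27l2a (-1.44 to 0.17) and Scn7a (-4.11 to 1.68) without air at pnd7, Gzmb (-3.49 to 2.03), Tuba1b (-1.31 to 0.17) and Tyrobp (-4.05 to 5.80) without hyperoxia at pnd7, and Sftpc (-0.39 to 4.50) without air at pnd60. Between hyperoxia and air they were Cd74 (-0.83) without doublets, Cd74 (-0.26) without its top cell, Junb (-0.11) after thinning, and Cd74 (-3.39 to 4.67) without hyperoxia at pnd60, Hbb-bt (-10.31 to 7.32) without air at pnd7, H2ac8 (-0.88 to 4.02) without hyperoxia at pnd7 and Cbr2 (-3.97 to 2.63) without air at pnd60.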
